A study of Mus musculus with 30 samples.

Results

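Variant Polycomb repressive complex 1 (PRC1) subunits are the proteins that distinguish the non-canonical forms of PRC1, and 9 of their genes are described here: Pcgf1, Pcgf3, Pcgf5, Pcgf6, Kdm2b, L3mbtl2, Rybp, Yaf2 and Bcor. They were chosen by gene symbol in the probe annotation, with earlier results of these data known, and are 9 of the 19937 genes that the arrays measured. Each gene was read from the probe set with the highest mean over all arrays. All 9 were among the 15180 genes kept for testing by a filter on low signal.

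The series used Affymetrix arrays to profile mouse primordial germ cells, from which eggs and sperm descend, and asked how PRC1 governs when female germ cells take their sexual fate. The 2 genotypes are labelled Ring1+;Rnf2delta (Rnf2delta below) and Ring1+;Rnf2+ (control below). Both carried an Oct4(deltaPE)-GFP transgene, by which germ cells were sorted, on a background mixed from 129/Sv and C57BL6J. The labels name no Cre driver and do not say how the allele was deleted. Females and males of both genotypes were collected on embryonic days E11.5 and E12.5, with controls alone added for E13.5. This gave 10 groups of 3 arrays, each array from the amplified RNA of a small pool of sorted cells. Whether replicate arrays stem from different embryos is not stated in the labels, so the p-values measure only the spread between these samples, and that spread may be technical.

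PRC1 places ubiquitin on histone H2A through the paired ligases RING1 (gene Ring1) and RNF2 (also called RING1B). Each variant complex joins this catalytic core to RYBP or YAF2 in place of a chromobox protein and to 1 PCGF protein, which sets the other partners. PCGF1 assembles with KDM2B, which binds unmethylated CpG islands, and with the corepressor BCOR. PCGF3 and PCGF5 form related complexes. PCGF6 works with L3MBTL2 and with the DNA-binding factors MGA, MAX and E2F6, and in embryonic stem cells it represses germline genes.

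Several properties of the arrays bear on all results below. Rnf2 itself was checked first: it lay between 3.81 and 4.04 on the log2 scale in E11.5 Rnf2delta females, against 4.46 to 4.61 in controls, and between 4.01 and 4.57 in E11.5 Rnf2delta males, against 4.13 to 4.79 in controls, where the ranges overlapped. At E12.5 it was 4.47 to 5.0 in Rnf2delta females, against 5.08 to 5.71 in controls, and 4.09 to 4.46 in Rnf2delta males, against 5.21 to 5.68 in controls. Averaged over the 4 pairs Rnf2 was lower by a log2 difference of -0.64 ± 0.09 (SE; limma, adjusted p = 1.5e-05), while at E11.5 alone it was not called in females (adjusted p = 0.20) or males (0.80). The probe set still gave signal in Rnf2delta cells, and the deleted part and the part it reads are not known here. The 7 germ cell markers listed (among them Ddx4 and Pou5f1) were at 4.80 to 9.71 on every array. Their levels were not constant. In E12.5 Rnf2delta females Pou5f1 (-0.65 ± 0.15), Dppa3 (-0.56 ± 0.15) and Dnd1 (-0.69 ± 0.21) were called lower. Over the 4 pairs Ddx4 was called higher (0.60 ± 0.13) and Dppa3 lower (-0.29 ± 0.07). Several also differed between stages or sexes of the controls. Of 20 measured markers of other gonadal and blood cells, 19 stayed at or below 3.97. The exception was the embryonic globin Hbb-y, at 9.71 on Rnf2delta E12.5 male replicate 3 and at most 3.22 on the other 29 arrays. Without that array, the E12.5 male difference of Bcor was 0.63 (adjusted p = 0.14), no member was called in E12.5 males, and 3 were still called over the 4 pairs. The 6 E12.5 female arrays stood apart: the correlation with their own group was 0.964 to 0.978 across genes, against 0.983 to 0.990 elsewhere. Their part in the results was not tested beyond the fits that leave them out, given beside the results they touch. Among the low markers of other cells, Amh was called higher in control males at E13.5 than at E11.5 (0.96 ± 0.26). It was lower in E13.5 control females than males (-0.82 ± 0.26). Tek was called lower at E12.5 than at E11.5 in control females (-0.57 ± 0.17) and at E13.5 than at E11.5 in control males (-0.61 ± 0.17). In these sorted pools, fewer cells expressing a gene and less RNA per cell cannot be told apart.

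The mean signal of each of the 9 genes lay between the 71.1 and 89.4 percentiles of the means of all 34760 probe sets. Each gene exceeded the 40th percentile of its own array (2.2 to 2.4) on all 30 arrays, which does not by itself show expression. Their 30-array means ranged from 3.90 for Yaf2 to 6.13 for Pcgf6, a gene-by-gene scale on which probe sets of different genes are not compared. Some control groups were low. Yaf2 read 2.68 to 3.36 in E11.5 females and 3.17 to 3.48 in E11.5 males, and Pcgf1 2.60 to 3.60 in E12.5 females. The array medians were 2.52 to 2.66, and the markers of other cells above reached 3.97. The Yaf2 genotype and stage rises and the E12.5 sex difference of Pcgf1 start from these levels. Whether such signals are expression was not tested. The genes varied very unequally between groups. The SD of the 10 group means was 0.53 for Yaf2, 0.46 for L3mbtl2, 0.45 for Pcgf5 and for Kdm2b, 0.43 for Bcor and 0.41 for Pcgf1, each above the 90th percentile of all genes tested (90.5 to 96.1). It was 0.17 for Pcgf3, 0.13 for Pcgf6 and 0.12 for Rybp, each below the gene's own within-group SD of 0.20, 0.15 and 0.32.

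The sequences shown are of the start regions of Bcor and Kdm2b, genes of PCGF1 complex subunits that passed a genotype test. Yaf2, whose product joins variant complexes, passed such a test too but had no matched window. RefSeq promoter windows (250 bases before and 50 after an annotated start, build GRCm38.p6) were matched for 6 of the 9 members, with 12 windows in all. Both windows lie on the minus strand and belong to the furthest upstream start listed, at chrX:12160306-12160605 for Bcor and at chr5:122989050-122989349 for Kdm2b. Capitals mark CG pairs.
Bcor: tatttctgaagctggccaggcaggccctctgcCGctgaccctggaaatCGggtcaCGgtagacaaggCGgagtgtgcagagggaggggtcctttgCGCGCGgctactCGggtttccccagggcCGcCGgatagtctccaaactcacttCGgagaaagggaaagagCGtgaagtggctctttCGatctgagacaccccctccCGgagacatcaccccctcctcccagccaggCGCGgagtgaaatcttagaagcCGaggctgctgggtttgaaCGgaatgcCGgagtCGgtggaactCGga
Kdm2b: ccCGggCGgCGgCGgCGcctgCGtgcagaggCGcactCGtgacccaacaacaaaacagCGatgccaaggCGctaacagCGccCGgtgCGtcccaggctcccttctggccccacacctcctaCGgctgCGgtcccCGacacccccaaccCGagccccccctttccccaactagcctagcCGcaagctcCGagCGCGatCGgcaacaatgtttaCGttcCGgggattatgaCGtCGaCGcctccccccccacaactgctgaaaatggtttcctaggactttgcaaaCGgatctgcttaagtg
The Bcor window holds 21 CG pairs and the Kdm2b window 28, at the 75.2 and 85.8 percentiles of the 32851 windows in the table, whose median is 7. Both windows thus hold more CG pairs than most in the table. Windows at other listed starts of Kdm2b held 49, 47 and 18 CG pairs (99.0, 98.6 and 70.3 percentiles), and the other Bcor window held 21. Across all 12 member windows the E-box CACGTG, read on both strands, was absent, and the E2F-type motif TTCCCGC or its complement was found in 1 window of Pcgf5. These motifs occur in 7.2% and 4.6% of all windows.

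Averaged over the 4 pairs of stage and sex, Bcor, Yaf2 and Kdm2b rose in Rnf2delta germ cells relative to controls, and none of the 9 genes fell. That is 3 of 9 members called (adjusted p under 0.05), where 10.3% of the genes tested were called in that comparison. The remaining 6 genes, Pcgf1 and Rybp among them, did not pass. The median difference of the 9 was 0.179, against 0.012 over all genes tested.

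Bcor encodes a corepressor that is particular to the PCGF1 complex. In E11.5 females its log2 signal was 5.07, 5.03 and 5.54 in Rnf2delta arrays, against 4.17, 4.41 and 3.94 in control arrays, and in E11.5 males 5.06, 4.68 and 4.75 in Rnf2delta arrays, against 4.26, 3.70 and 3.79 in control arrays. Every Rnf2delta array lay above every control array of its stage and sex at E11.5. At E12.5 the females read 4.73, 4.80 and 4.97 in Rnf2delta arrays, against 4.55, 4.12 and 3.91 in control arrays, and the males 4.62, 4.64 and 4.50 in Rnf2delta arrays, against 4.0, 4.04 and 3.95 in control arrays. The groups did not overlap at E12.5 either, so 12 of 12 Rnf2delta arrays lay above all of their own controls. This count was not made for the other genes tested. In single pairs, 14.2% to 17.7% of the genes tested were apart in either direction. The difference was 1.04 ± 0.17 in E11.5 females (SE; limma, adjusted p = 8.4e-04), a 2.05-fold rise, and 0.92 ± 0.17 in E11.5 males (adjusted p = 0.0034), a 1.89-fold rise. In these groups Bcor was the only member called, where 0.553% and 0.718% of the genes tested were called. It was 0.64 ± 0.17 in E12.5 females (adjusted p = 0.013) and 0.59 ± 0.17 in E12.5 males (adjusted p = 0.10, not called). Over the 4 pairs it was 0.80 ± 0.08 (adjusted p = 8.5e-08), a 1.74-fold rise. Bcor was called in each of the 16 alternatives run at E11.5 in either sex, and in each of the 33 run over the 4 pairs. The E12.5 female call was lost with array weights (0.12), when the fit held the compared groups alone (0.26), under quantile normalization (0.055) and without control replicate 3 (0.076), all given as adjusted p. E12.5 males passed with array weights (0.03) and without the E12.5 female arrays (0.049).

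Kdm2b encodes the CpG-binding subunit of the PCGF1 complex. In E12.5 females its signal was 5.18, 5.08 and 5.08 in Rnf2delta arrays, against 4.35, 4.76 and 4.25 in control arrays, and in E11.5 males 4.64, 5.11 and 5.04 in Rnf2delta arrays, against 4.62, 4.54 and 4.6 in control arrays. Both pairs of groups were apart, although 1 E11.5 Rnf2delta male sat just above the controls. Of the genes tested, 17.7% were apart in E12.5 females and 15.6% in E11.5 males. In E11.5 females the values were 4.41, 4.41 and 4.33 in Rnf2delta arrays, against 4.44, 4.06 and 4.23 in control arrays, and in E12.5 males 5.48, 5.29 and 4.93 in Rnf2delta arrays, against 4.91, 5.0 and 5.15 in control arrays, with overlap in both. The difference was 0.66 ± 0.15 in E12.5 females (SE; adjusted p = 0.005), a 1.58-fold rise, and 0.34 ± 0.07 over the 4 pairs (adjusted p = 0.0026). Kdm2b and Bcor were the 2 members called in E12.5 females, where 9.89% of genes were called. With array weights the E12.5 female call of Kdm2b was lost (0.11), as it was when the fit held the compared groups alone (0.21).

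Yaf2 encodes one of the paired adaptors, with RYBP, that bind RNF2 in variant complexes. At E11.5 its signal was 3.75, 3.58 and 3.88 in Rnf2delta females, against 3.24, 3.36 and 2.68 in control females, and 3.74, 3.99 and 4.31 in Rnf2delta males, against 3.17, 3.18 and 3.48 in control males. At E12.5 it was 4.79, 5.06 and 4.51 in Rnf2delta females, against 3.90, 4.80 and 4.05 in control females, and 3.73, 4.14 and 3.76 in Rnf2delta males, against 3.33, 3.65 and 3.46 in control males. Groups were apart in every pair except E12.5 females, where control replicate 2 stood near the Rnf2delta arrays. Of the genes tested, 14.2% were apart in E11.5 females, 15.6% in E11.5 males and 14.6% in E12.5 males. The difference was 0.64 ± 0.20 in E11.5 females (adjusted p = 0.22), 0.73 ± 0.20 in E11.5 males (0.099), 0.53 ± 0.20 in E12.5 females (0.09) and 0.40 ± 0.20 in E12.5 males (0.62), none called, and 0.58 ± 0.10 over the 4 pairs (limma, adjusted p = 2.1e-04), a 1.49-fold rise. Without E12.5 female control replicate 2 the E12.5 female difference was 0.81 (adjusted p = 0.0071), and without Rnf2delta replicate 3 it was 0.67 (0.047). The E11.5 male difference passed with array weights (0.021) and without the E12.5 female arrays (0.022).

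**Figure D1:**
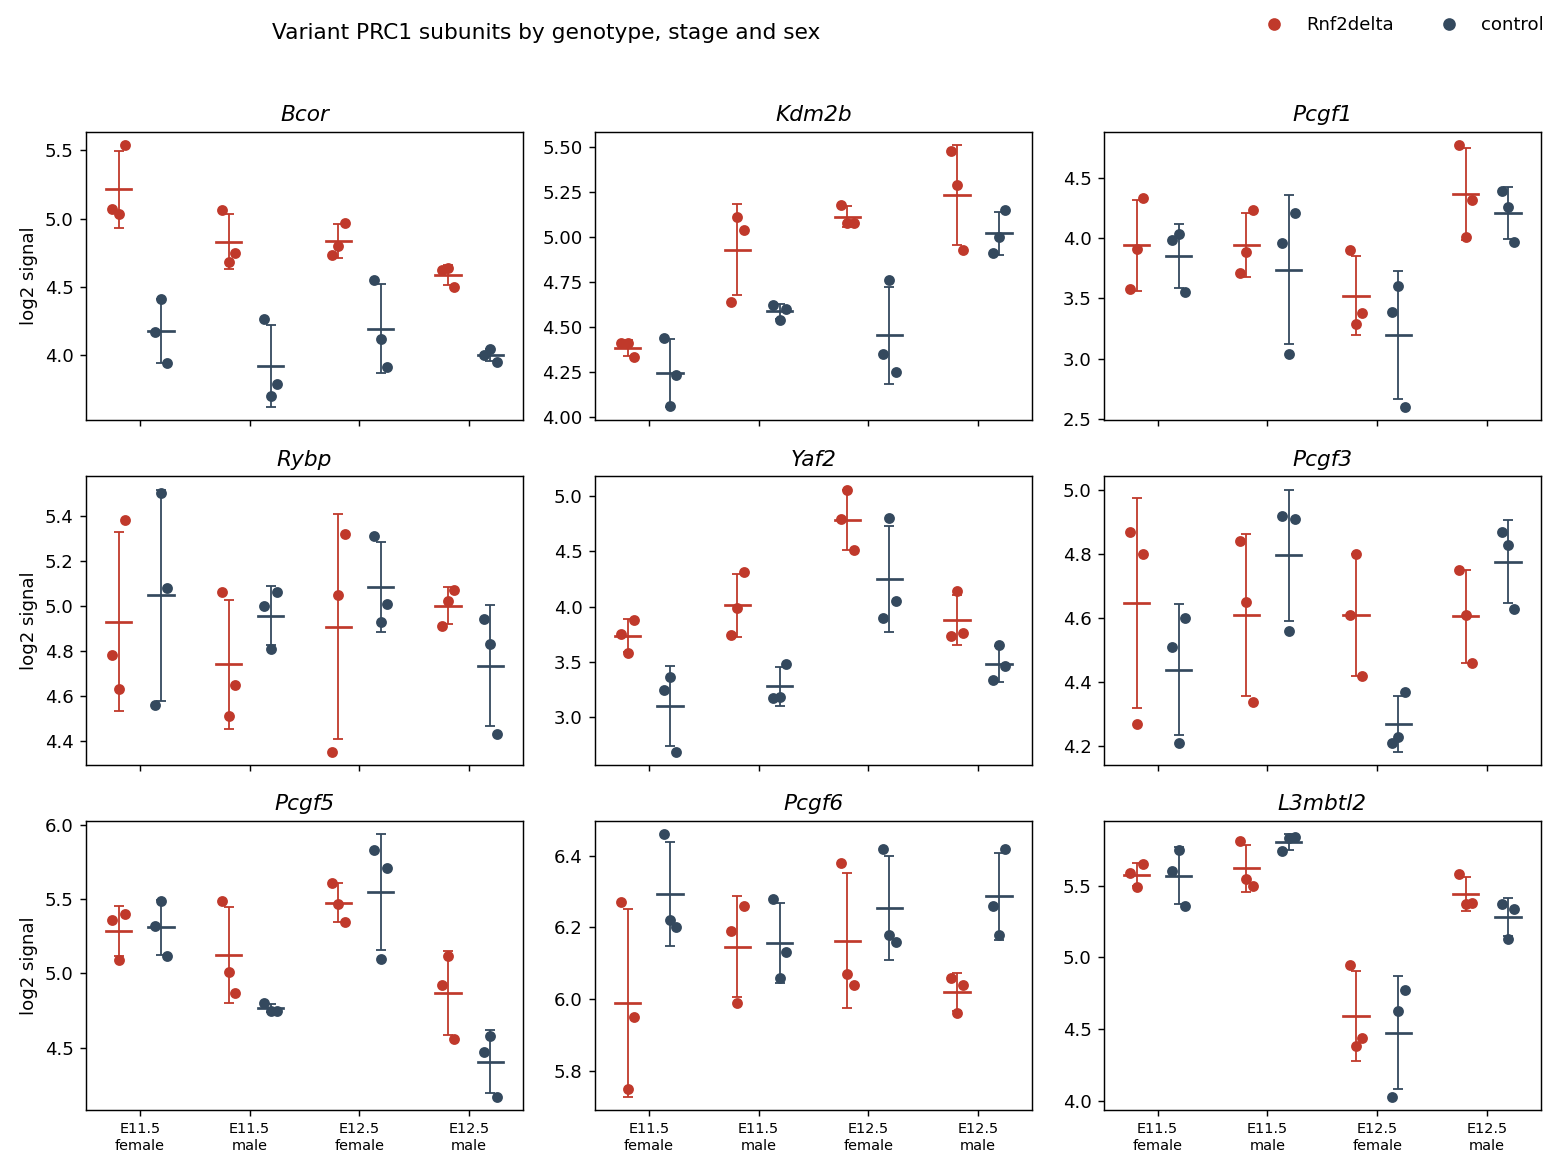
Log2 signal of each variant PRC1 subunit gene on single arrays, for Rnf2delta (red, left) and control (blue, right) germ cells in the 4 pairs of stage and sex; points are arrays, bars are means and error bars SD (n = 3), and each panel has its own axis. For Bcor all 12 Rnf2delta arrays stood above their own controls, for Yaf2 10 did and for Kdm2b 8 did. This count was not made for the other genes tested. In single pairs, 14.2% to 17.7% of the genes tested were apart in either direction.

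The other members showed no difference past the test. Pcgf1, which encodes the scaffold of the KDM2B and BCOR complex, differed by 0.19 ± 0.14 over the 4 pairs (SE; adjusted p = 0.46). Pcgf3 and Pcgf5, genes of the closely related scaffolds of 2 further complexes, differed by 0.05 ± 0.08 (adjusted p = 0.80) and 0.18 ± 0.09 (0.25). Pcgf6 was 6.06, 5.96 and 6.04 in E12.5 Rnf2delta males, against 6.26, 6.18 and 6.42 in control males. No Rnf2delta array of any group exceeded all of its own Pcgf6 controls, a count not made for the other genes tested. Its difference over the 4 pairs was -0.17 ± 0.07 (adjusted p = 0.12), which is not called. L3mbtl2, whose product is the PCGF6 partner that binds chromatin, differed by 0.03 ± 0.09 (0.91).

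The signal that the annotation gives to Rybp, the adaptor gene paired with Yaf2, came from 2 probe sets that did not track each other (r = -0.15 over 30 arrays, a description of points that share their arrays). The RefSeq table lists a transcribed Rybp pseudogene on another chromosome, and which locus each probe set reads cannot be told here. The probe set used differed by -0.06 ± 0.12 over the 4 pairs (adjusted p = 0.82), and the other by 0.14 ± 0.15 (0.63). Neither was called in any comparison.

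Beyond means, the separation of single arrays was counted. In E11.5 females Yaf2 and Bcor lay wholly above the controls, where 14.2% of the genes tested were apart in either direction. Pcgf5, Kdm2b, Yaf2 and Bcor were wholly above in E11.5 males, where 15.6% were apart. In E12.5 females Pcgf3, Kdm2b and Bcor did so, where 17.7% were apart. Yaf2 and Bcor lay above and Pcgf6 below in E12.5 males, where 14.6% were apart. No member was called in E12.5 males by limma, where 0.962% of genes were called. Of 1299 genes with an unadjusted p under 0.05 there, 2 were members, Pcgf5 (0.46 ± 0.18) and Bcor.

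**Figure D2:**
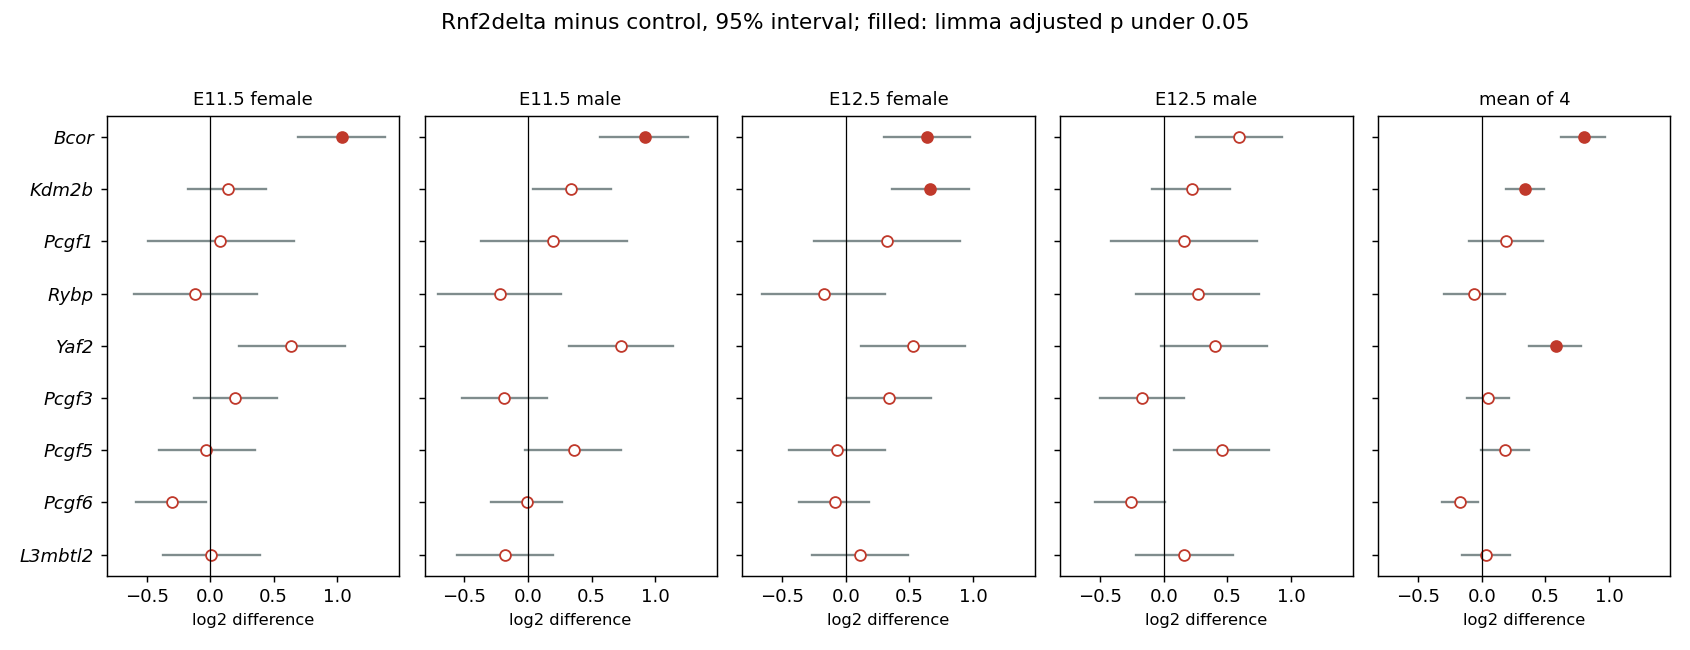
Log2 difference between Rnf2delta and control for each of the 9 genes (points, with 95% intervals) in the 4 pairs of stage and sex and in their mean; filled points passed an adjusted p of 0.05. Bcor lies between 0.59 and 1.04 in every panel of a pair, and Bcor, Yaf2 and Kdm2b are the filled points of the mean.

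Whether the genotype difference itself differed between sexes or stages was tested by interaction terms, and no member was called in any of the 4 tests. Between sexes at E11.5, 0.0% of genes were called, with 269 at an unadjusted p under 0.05, none of them a member. At E12.5, 0.296% were called. Of 2033 genes with an unadjusted p under 0.05, 2 were members, Pcgf3 (0.51 ± 0.23, female minus male, adjusted p = 0.32) and Kdm2b (0.45 ± 0.21, 0.36). Between stages, 0.145% of genes were called in females. Of 1682 genes with an unadjusted p under 0.05 there, Kdm2b was the 1 member (0.52 ± 0.21, E12.5 minus E11.5, adjusted p = 0.34). The males gave 0.0% called, with 361 genes but no member at an unadjusted p under 0.05. For Bcor the difference at E12.5 was lower than at E11.5 by -0.39 ± 0.24 in females (95% interval -0.88 to 0.09) and -0.33 ± 0.24 in males (-0.81 to 0.15), and both intervals include 0.

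Across embryonic days, in the control arrays, Kdm2b and Yaf2 rose in both sexes. These comparisons use some of the same control arrays as the genotype comparisons, so the values are set side by side and not counted as a second line of evidence. Kdm2b read 4.44, 4.06 and 4.23 in E11.5 females, 4.35, 4.76 and 4.25 in E12.5 females and 5.42, 5.53 and 5.48 in E13.5 females. In males the 3 stages read 4.62, 4.54 and 4.6, then 4.91, 5.0 and 5.15, then 5.22, 5.57 and 5.51, with no overlap between stages. Of the genes tested, 25.2% were apart between male E11.5 and E12.5, 19.3% between E12.5 and E13.5 and 33.8% between E11.5 and E13.5. The E13.5 minus E11.5 difference of Kdm2b was 1.23 ± 0.15 in females (SE; limma, adjusted p = 5.0e-07), a 2.35-fold rise, and 0.85 ± 0.15 in males (adjusted p = 2.9e-04), a 1.80-fold rise.

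Yaf2 read 3.24, 3.36 and 2.68 in E11.5 females, 3.90, 4.80 and 4.05 in E12.5 females and 4.54, 4.6 and 4.34 in E13.5 females. The E11.5 females lay below both later stages, where 27.2% (E12.5) and 41.2% (E13.5) of the genes tested were apart. The 2 later stages overlapped each other. The male values were 3.17, 3.18 and 3.48 at E11.5, 3.33, 3.65 and 3.46 at E12.5 and 3.83, 3.97 and 4.11 at E13.5. The E13.5 minus E11.5 difference was 1.40 ± 0.20 in females (adjusted p = 5.3e-06), a 2.64-fold rise, and 0.69 ± 0.20 in males (0.024). The male call was lost without E11.5 replicate 1 (0.091) or 2 (0.086) and without E13.5 replicate 2 (0.066) or 3 (0.099).

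Further calls came from 1 sex each, and the difference between sexes is tested further on. In males Pcgf1, the PCGF1 scaffold gene, rose between E11.5 and E13.5 by 0.89 ± 0.28 (adjusted p = 0.039): it read 3.96, 3.04 and 4.21 at E11.5, 4.39, 4.26 and 3.97 at E12.5 and 4.52, 4.78 and 4.57 at E13.5. The E11.5 array at 3.04 lay far below the rest of its group. Without that replicate 2 the difference was 0.54 (adjusted p = 0.30), and the call was also lost without E11.5 replicate 1 (0.052), without E13.5 replicate 1, 2 or 3 (0.07, 0.13 and 0.085) and with no low-signal filter (0.052). In females Pcgf6 fell by -0.38 ± 0.14 (0.038), with 6.46, 6.22 and 6.20 at E11.5, 6.42, 6.18 and 6.16 at E12.5 and 5.96, 6.01 and 5.78 at E13.5. Its E13.5 arrays lay below both earlier stages, where 41.2% (E11.5) and 30.2% (E12.5) of the genes tested were apart. The Pcgf6 call was lost without any of 4 arrays, E11.5 replicate 1 (0.17) or 2 (0.054) and E13.5 replicate 1 (0.063) or 3 (0.16). It was also lost under quantile normalization (0.061) and with the compared groups alone (0.054). L3mbtl2 in females read 5.60, 5.75 and 5.36 at E11.5, 4.03, 4.63 and 4.77 at E12.5 and 4.73, 5.35 and 4.61 at E13.5. Against E11.5, female L3mbtl2 was lower by a log2 difference of -1.09 ± 0.19 at E12.5 (adjusted p = 1.3e-04) and -0.67 ± 0.19 at E13.5 (0.0077). Neither stage overlapped E11.5, where 27.2% (E12.5) and 41.2% (E13.5) of the genes tested were apart. The E13.5 call of L3mbtl2 was lost without E13.5 replicate 3 (0.063).

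**Figure D3:**
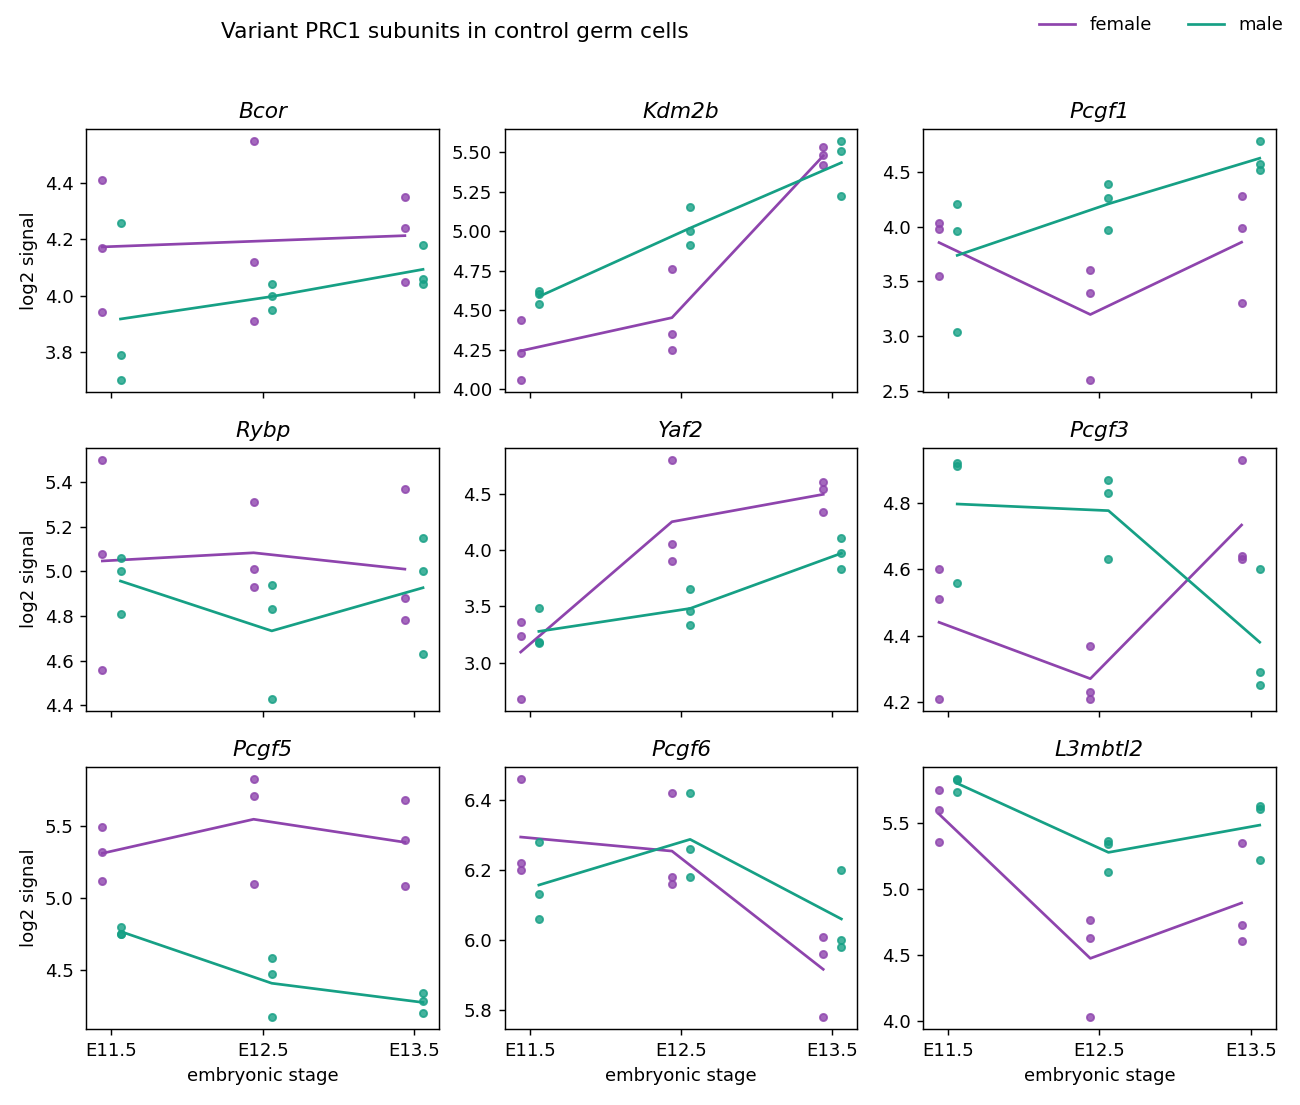
Log2 signal of the 9 genes in control germ cells at E11.5, E12.5 and E13.5 for females (purple) and males (teal); points are arrays, lines join the group means and each panel has its own axis. Kdm2b and Yaf2 reach their highest female means at E13.5 (5.47 and 4.49), while female L3mbtl2 is lowest at E12.5 (4.48).

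In all, 2 of 9 members were called in females between E11.5 and E12.5, where 18.8% of the genes tested were called: Yaf2 rose by 1.16 ± 0.20 (adjusted p = 1.6e-04) and L3mbtl2 fell. Between E12.5 and E13.5 in females 2 were called, where 21.8% of genes were: Kdm2b rose by 1.02 ± 0.15 (1.4e-05) and Pcgf3 by 0.46 ± 0.16 (0.04). The Pcgf3 call was lost under quantile normalization (0.18), with array weights (0.16), with a variance trend and robust prior (0.052), with the compared groups alone (0.094), without E12.5 female replicate 1 or 2 (0.096 and 0.082) and without E13.5 female replicate 1, 2 or 3 (0.17, 0.06 and 0.053). From E11.5 to E13.5 in females, 4 of 9 were called (Kdm2b, Yaf2, L3mbtl2 and Pcgf6), where 26.3% of genes were. Males gave 0 called members between E11.5 and E12.5, where 2.62% of genes were called. Of 2372 genes with an unadjusted p under 0.05 there, 2 were members (Kdm2b 0.43 ± 0.15 and L3mbtl2 -0.52 ± 0.19). Between E12.5 and E13.5 males gave 0, where 1.1% of genes were called and 1513 genes, 3 of them members, had an unadjusted p under 0.05. From E11.5 to E13.5 they gave 3 (Pcgf1, Kdm2b and Yaf2), where 11.0% were.

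The stage change was compared between sexes. For E13.5 minus E11.5 no member was called, where 5.28% of genes were. Of 2725 genes with an unadjusted p under 0.05, 4 were members. The 3 largest of these 4 in size were Pcgf1 (-0.89 ± 0.40, female minus male), Yaf2 (0.71 ± 0.28) and Pcgf3 (0.71 ± 0.23, adjusted p = 0.07). For E12.5 minus E11.5, a comparison added after the data were seen, 3.34% of genes were called and no member. Of 2544 genes with an unadjusted p under 0.05 there, 4 were members. For E13.5 minus E12.5, also added, 6.45% of genes and 1 member were called: Pcgf3, the scaffold gene of a variant complex, changed by 0.86 ± 0.23 more in females than in males (adjusted p = 0.024). It read 4.21, 4.23 and 4.37 in E12.5 females and 4.93, 4.64 and 4.63 in E13.5 females, against 4.87, 4.83 and 4.63 in E12.5 males and 4.25, 4.29 and 4.6 in E13.5 males. Females were higher at E13.5 and males lower. The stages did not overlap in either sex, where 30.2% of the genes tested were apart in females and 19.3% in males. The call was lost in 6 of 20 alternatives: under quantile normalization (adjusted p = 0.061), without E12.5 male replicate 1 (0.056) or 2 (0.054), without E13.5 male replicate 1 (0.058) or 2 (0.063), and without E13.5 female replicate 1 (0.066).

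Females and males of the control genotype were also compared at each stage, and members differed between them at E12.5 and E13.5. At E11.5 no member was called, where 0.25% of genes were; 3 had an unadjusted p under 0.05 (Pcgf3, Pcgf5 and Kdm2b), with 1281 genes at that level. At E12.5, 6 of 9 members were called, where 19.1% of genes were. Pcgf5 (1.13 ± 0.18, adjusted p = 6.8e-05) and Yaf2 (0.77 ± 0.20, 0.0067) were higher in females, while Pcgf1 (-1.01 ± 0.28, 0.011), L3mbtl2 (-0.81 ± 0.19, 0.0024), Kdm2b (-0.57 ± 0.15, 0.0075) and Pcgf3 (-0.50 ± 0.16, 0.028) were lower in females. The E12.5 female arrays that stood apart are one side of this comparison, and their part in it was not tested. Of these calls, Kdm2b and Pcgf3 were lost under quantile normalization (0.075 and 0.16), with array weights (0.051 and 0.10) and with the compared groups alone (0.084 and 0.075). Yaf2 was lost with the compared groups alone (0.076) and without E12.5 female replicate 2 (0.071). Pcgf1 was lost without E12.5 male replicate 1 (0.054) or E12.5 female replicate 3 (0.091), and Pcgf3 without male replicate 1 or 2 (0.10 and 0.087) or female replicate 1 or 2 (0.081 and 0.062). Pcgf5 and L3mbtl2 were called in all of the alternatives that give this comparison.

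At E13.5, 2 of 9 were called, where 16.3% of genes were. Pcgf5 read 5.68, 5.08 and 5.40 in females, against 4.28, 4.34 and 4.20 in males, a difference of 1.11 ± 0.18 (SE; adjusted p = 7.7e-05) with no overlap. At E12.5 it was 5.83, 5.10 and 5.71 in females, against 4.47, 4.58 and 4.17 in males, and at E11.5 it was 5.32, 5.49 and 5.12 in females, against 4.80, 4.75 and 4.75 in males. The female arrays lay above the male arrays at these stages too. Of the genes tested, 16.3% were apart between the sexes at E11.5, 28.7% at E12.5 and 36% at E13.5. The E11.5 difference of Pcgf5, 0.54 ± 0.18, was not called (adjusted p = 0.33). L3mbtl2 was lower in E13.5 females by -0.59 ± 0.19 (adjusted p = 0.028), and lost that call without E13.5 male replicate 2 or 3, without E13.5 female replicate 1 or 3 (0.11 to 0.17) and with the compared groups alone (0.05). For Pcgf1 the E13.5 difference was -0.77 ± 0.28 (female minus male) and was not called (0.062).

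The genes of related complexes give the setting. Over the 4 pairs, 4 of 18 tested genes for other variant PRC1 partners rose and none fell, where 10.3% of all genes tested were called: Mga (0.49 ± 0.09), E2f6 (0.42 ± 0.08), Auts2 (0.30 ± 0.09) and Hdac2 (0.19 ± 0.06). MGA and E2F6 are the DNA-binding factors of the PCGF6 complex. The median of the 18 was 0.082, against 0.012 over all genes. The Hdac2 call was lost in 21 of 33 alternatives and that of Auts2 in 4. Among 10 canonical PRC1 genes 3 rose, Cbx8 (1.43 ± 0.09), Bmi1 (0.63 ± 0.12) and Cbx2 (0.36 ± 0.08), and Pcgf2 fell by -0.26 ± 0.08, a call lost in 18 of 33 alternatives. The median of the 10 was 0.242, against 0.012 over all genes. In PRC2, which places H3K27 methylation, 2 of 11 genes rose (Phf19, 0.43 ± 0.09, and Rbbp7, 0.32 ± 0.07), against the same 10.3% of all genes called. The PRC2 median was 0.034, against 0.012 over all genes.

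A last list held 12 germline genes taken as targets that the PCGF6 complex represses in mouse embryonic stem cells, and all passed the filter. One of them, Ddx4, is also among the germ cell markers above. In Rnf2delta germ cells 8 rose over the 4 pairs and 1, Stag3, fell by -0.29 ± 0.09, a call lost in 5 of 33 alternatives, where 10.3% of all genes tested were called. The pairs were unequal: 0 of the 12 were called in E11.5 females (median difference 0.378), 3 in E11.5 males (0.658), 7 in E12.5 females (1.242) and 2 in E12.5 males (0.442), all of them higher. The shares of all genes tested that were called were unequal too, at 0.553%, 0.718%, 9.89% and 0.962% in the same order. Several of these list calls were lost in alternatives. In E12.5 females Taf7l and Smc1b were each lost in 1 of 15, and Tdrkh and Tuba3a each in 2 of 15. In E11.5 males Mael and Slc25a31 were each lost in 3 of 16, and in E12.5 males Mael in 3 of 16. The largest count came from the E12.5 female arrays, which stood apart, and their part in it was not tested. Over the 4 pairs the largest rises were those of Tex101 (2.21 ± 0.15), a germ cell surface protein gene, Mael (1.22 ± 0.13), which acts in the silencing of transposons, and Slc25a31 (1.08 ± 0.13), a mitochondrial carrier gene. The list's median was 0.625, against 0.012 over all genes, and Pcgf6 itself did not pass. In control females every gene of the list was called higher at E13.5 than at E11.5, where 26.3% of all genes tested were called. Among them were Tex101 (1.32 ± 0.30), Mael (2.06 ± 0.26), Slc25a31 (2.08 ± 0.26) and Stag3 (1.35 ± 0.18). The female calls of Hormad1 and Tdrkh were lost in 3 and 5 of 15 alternatives. In control males Mael (1.21 ± 0.26), Slc25a31 (1.67 ± 0.26), Ddx4, Stk31, Tuba3a, Smc1b, Dazl and Tdrkh were called higher as well, where 11.0% of all genes tested were called. Tex101, Stag3, Taf7l and Hormad1 were not called in males. The male calls of Dazl and Tdrkh were lost in 4 and 8 of 15 alternatives. The part of stage in the genotype differences was not tested.

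The genes most like each member over the 30 arrays were found by Pearson correlation, as a description. For Kdm2b they were Tmem18 (r = 0.921) and Tuba3a (0.895), for L3mbtl2 Prpf31 (0.907) and Ddx27 (0.902), and for Yaf2 Tasor2 (0.904) and Stau2 (0.894). Those of Bcor were Prkar2a (0.865) and Bcl9 (0.856), and of Pcgf5 Zfp521 and Calcoco2 (both 0.851). Pcgf1 had Snap47 (0.778) and Psme2 (0.768), while Pcgf3, Pcgf6 and Rybp had no gene above 0.729. Among the members themselves, Pcgf1 and Pcgf5 ran opposite (r = -0.81 over the 10 group means and -0.63 over the arrays), as did L3mbtl2 and Yaf2 (-0.77 and -0.60), while Kdm2b and Yaf2 ran together (0.55 and 0.53). The arrays share their groups, so these values describe the groups as much as the genes.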

How the data were processed

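Mouse primordial germ cells were sorted by an Oct4(deltaPE)-GFP reporter and their RNA was amplified before hybridisation, per the labels' protocols. The authors deposited log2 signals for 34760 probe sets on 30 arrays, with array medians of 2.52 to 2.66. R 2.15 and affy 1.36 are named, per the submitters' processing notes; how background was corrected and probes were summarised is not given in these sources.

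Probe sets with 1 symbol (21640) were used, with symbols updated through Entrez identifiers and the RefSeq table (21553 matched). Several symbols (1321) or none listed (11799) excluded a probe set. A gene needed 3 arrays above the 40th percentile of their own array, which removed 4757 of 19937 genes. All 30 arrays entered a single linear model in limma 3.58.1 under R 4.3.3, with a mean per group, 20 residual degrees of freedom and equal weights. Contrasts were two-sided and adjusted by Benjamini-Hochberg over 15180 genes, with a threshold of 0.05. The fit was tested on simulated data.

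Named genes are the 9 members, the 2 genes most correlated with each over the arrays (Pearson) and called genes of each list. The members and lists were chosen with earlier results of these data known. Alternatives were quantile normalization, array weights, a variance trend with robust prior, the compared groups alone, no filter, the mean of several probe sets, a replicate block over all groups or within stage and sex, no E12.5 female arrays, and each array left out. The labels do not say that a replicate number marks a shared source. Deviations from group means of same-numbered arrays all correlated above 0.1 in 1 of 45 pairs of groups, the Rnf2delta and control E11.5 males (mean r 0.129, lowest 0.104). Averaged over the 45 pairs, the correlation was 0.005 for the same number and -0.002 for other numbers. A pairing of the E11.5 males by number is thus possible but not established. The highest mean of a pair of groups was that of the E12.5 male genotypes (0.191, lowest 0.096). The main fit held no replicate block, so its results use no pairing by number. Fits with such a block are given further on. The number of arrays limits the precision.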

Additional observations from a re-analysis of the deposited data

Results flagged for a closer look

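In control germ cells the change of Pcgf3 between E12.5 and E13.5 differed between the sexes by 0.86 ± 0.23 on the log2 scale (female minus male; limma interaction, adjusted p = 0.024), in a comparison added after the data were seen. All 3 E13.5 females lay above the 3 E12.5 females, where 30.2% of the genes tested were apart in either direction. All 3 E13.5 males lay below the 3 E12.5 males, where 19.3% were apart. The call was lost under quantile normalization (0.70, adjusted p = 0.061) and without E12.5 male replicate 1 (0.056) or 2 (0.054), E13.5 male replicate 1 (0.058) or 2 (0.063), or E13.5 female replicate 1 (0.066). The E12.5 female arrays, which stood apart from the rest, are one side of it, and their part was not tested.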

How the results depend on the processing

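Over the 9 members and 21 comparisons, no alternative reversed a called difference. Of single-gene values, 57 lost their call and 33 gained one. In 14, called in neither fit, the sign changed with a shift of at least the SE of the main fit. The other 3271 kept their side of the threshold (some uncalled ones changed sign with a shift under that SE). Values that kept their sign and side are among the 3271 whatever the size of their shift. With array weights the members called were 2 (1 in the main setting) for genotype in E11.5 males, 0 (2) in E12.5 females and 1 (0) in E12.5 males. For stage they were 1 (2) for E13.5 minus E12.5 in females, 2 (0) for E12.5 minus E11.5 in males and 1 (0) for the E13.5 minus E11.5 change between sexes, and for sex at E13.5 they were 4 (2). With the compared groups alone they were 0 (2) for genotype in E12.5 females, 1 (2) for E13.5 minus E12.5 in females, 1 (0) for E12.5 minus E11.5 in males, 3 (6) for sex at E12.5 and 1 (0) for the E13.5 minus E11.5 change between sexes. Quantile normalization gave 1 (2) for genotype in E12.5 females, 1 (0) for the added E12.5 minus E11.5 change between sexes and 0 (1) for the added E13.5 minus E12.5 change. The variance trend with robust prior gave 1 (2) for E13.5 minus E12.5 in females. Without the E12.5 female arrays, the counts were 2 (1) and 1 (0) for genotype in E11.5 and E12.5 males, 1 (0) for E12.5 minus E11.5 in males and 4 (2) for sex at E13.5. The cause was not tested.

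Leaving out single arrays gave 1 to 3 members for genotype in E12.5 females, 2 to 4 for E13.5 minus E11.5 in females and 1 to 3 in males. It gave 1 to 3 for E13.5 minus E12.5 in females, 4 to 6 for sex at E12.5 and 1 to 3 for sex at E13.5. The change between sexes gave 0 to 1 for E13.5 minus E11.5 and for E12.5 minus E11.5, and 0 to 2 for E13.5 minus E12.5. The other counts stayed at their main value.

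Across all groups 12 of 30 arrays correlated best with their own replicate number. With the replicate block over all groups the count was 1 (0) for the added E12.5 minus E11.5 change between sexes, where Yaf2 passed (adjusted p = 0.046), and Pcgf6 passed for E13.5 minus E12.5 in females (0.049); no other member's call changed. A replicate block within stage and sex, added after the data were seen for the genotype comparisons, changed no member's call: E11.5 males kept 1 called member (Bcor, 0.92 ± 0.18, adjusted p = 0.025), and Bcor in E12.5 males was 0.59 ± 0.18 (0.20).

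Counts over all genes moved by more than 1.5 times in most comparisons. For genotype they were 39 to 157 in E11.5 females (84 in the main setting), 50 to 344 in E11.5 males (109), 54 to 1925 in E12.5 females (1502) and 73 to 285 in E12.5 males (146); the difference between sexes at E12.5 gave 1 to 313 (45) and between stages in females 0 to 126 (22). For stage in females they were 926 to 3330 (2853) for E12.5 minus E11.5 and 1461 to 3785 (3309) for E13.5 minus E12.5. The male ranges were 104 to 1241 (397), 60 to 456 (167) and, for E13.5 minus E11.5, 1049 to 2891 (1664). For sex they were 4 to 117 at E11.5 (38), 1150 to 3325 at E12.5 (2892) and 1750 to 3458 at E13.5 (2471), and for stage change between sexes 491 to 1606 (802), 200 to 858 (507) and 533 to 1318 (979). Quantile normalization moved the higher and lower split by over 10 points in E12.5 female genotype (976 and 486, against 1174 and 328), the genotype difference between sexes at E12.5 (26 and 19, against 33 and 12) and between stages in females (18 and 13, against 15 and 7). It did so for E12.5 minus E11.5 in females (1054 and 1674, against 692 and 2161) and males (215 and 218, against 146 and 251), its change between sexes (171 and 324, against 105 and 402), and sex at E11.5 (25 and 17, against 17 and 21) and E12.5 (864 and 1744, against 654 and 2238).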
